A study of Homo sapiens with 12 samples.

Results

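The 9 genes described here encode the enzymes that make and break down polyamines and the proteins that regulate ornithine decarboxylase: ODC1, AMD1, SRM, SMS, SAT1, SMOX, AZIN1, OAZ1 and OAZ2. They were taken by symbol from a list, and each had a single row among the 22395 named genes of the value table. RNA came from NCI-H1975, a human lung adenocarcinoma line whose EGFR, per the labels, carries L858R and T790M. L858R is an activating change, and T790M is known to confer resistance to erlotinib, a kinase inhibitor of EGFR. All 12 arrays share this line and genotype, and the labels do not say whether arrays came from separate cultures. There was 1 untreated array with no time given. Erlotinib at 1 µM had 4 arrays, at 6, 12, 24 and 48 h. Quinacrine at 3 µM, an acridine compound used against malaria, had 3 arrays, at 6, 12 and 24 h. Both compounds at these doses had 4 arrays, at 6, 12, 24 and 48 h, and are called the combination. No condition was repeated, so each n below counts time points of an arm, the p-values speak only to the spread among these arrays, and a value at 1 time has no replicate check.

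Polyamines are small, positively charged molecules that bind nucleic acids and are needed for growth. ODC1 makes putrescine from ornithine, AMD1 supplies the aminopropyl donor, and SRM and SMS add aminopropyl groups to give spermidine and then spermine. SAT1 acetylates spermidine and spermine for export or oxidation, and SMOX oxidises spermine back to spermidine. Antizymes such as OAZ1 and OAZ2 bind ornithine decarboxylase and deliver it to the proteasome, and AZIN1, a relative of the enzyme without its activity, binds antizyme in its place. Translation and protein breakdown regulate many of these proteins strongly, and the arrays measured RNA only.

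The results turn on ODC1, which fell with time in drug, and on SAT1, which was higher with quinacrine. The 250 bases before their starts are therefore shown, from RefSeq on GRCh38.p14, 5′ to 3′ along the gene. Both strands were searched for the GC box (letters GGGCGG), for the E-box written CACGTG, for the AP-1 element written TGACTCA and for the TATA box written TATAAA, and matches are in capitals. The ODC1 window is chr2:10448328-10448577 on the minus strand, before the outermost of its listed starts, and that of SAT1 is chrX:23782923-23783172 on the plus strand.
ODC1: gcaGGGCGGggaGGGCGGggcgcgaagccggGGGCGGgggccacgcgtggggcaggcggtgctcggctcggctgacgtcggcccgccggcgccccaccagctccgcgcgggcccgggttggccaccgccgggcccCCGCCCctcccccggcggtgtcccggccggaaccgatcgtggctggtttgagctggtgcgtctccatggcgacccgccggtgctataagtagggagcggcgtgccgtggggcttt
SAT1: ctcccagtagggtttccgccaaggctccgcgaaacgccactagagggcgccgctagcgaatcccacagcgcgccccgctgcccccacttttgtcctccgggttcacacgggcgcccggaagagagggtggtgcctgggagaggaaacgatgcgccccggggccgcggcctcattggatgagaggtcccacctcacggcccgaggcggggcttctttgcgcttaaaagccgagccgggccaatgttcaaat
The ODC1 window held 4 GC boxes and no match to the other motifs. The SAT1 window held none of the 4 motifs. RefSeq windows were matched for 7 of the 9 genes; SMOX and AZIN1 were not matched. A CACGTG match, the letters bound by MYC, lay 199 bases before the start of SRM and 29 bases before a second start of ODC1, and 6.34% of all 35116 windows of this length hold one. A GC box was found in 42.6% of all windows, an AP-1 match in 4.2% and a TATA box in 10.7%. These matches describe letters in a window and are not binding sites measured here.

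Levels are the authors' log2 values, on which a difference of 1 is a 2-fold change. Levels of different genes are not compared, since each gene has its own probes. Of the 9 genes, 8 had a mean level of at least 5 over the 12 arrays and were among the 5820 genes tested; OAZ2, at a mean of 2.79, was not. Array medians over all rows were 1.39 to 1.64. The combination 6 h array stood lowest in its median correlation with the other arrays (0.955, against 0.968 to 0.981). Its tested genes had a median difference of -0.21 from the untreated array, against -0.06 to 0.09 on the other treated arrays. Among epithelial markers, EPCAM, KRT7, KRT19 and CDH1 passed the level of 5 and KRT8, KRT18 and CLDN4 did not; the lung lineage factor NKX2-1 was at a mean of 6.12, while NAPSA, SFTPB and SFTPC were at 1.65 to 2.87. Of the leukocyte, endothelial and fibroblast markers that were found, CD68 alone passed the level of 5, PTPRC was at 0.89, and fibroblast markers were at 2.76 or less.

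ODC1, the rate-limiting enzyme of polyamine synthesis, fell with time in drug by a slope shared over the 3 arms, and its levels in the arms differed by at most 0.06 at each time up to 24 h. In the untreated array its level was 9.35. With erlotinib the levels were 9.50, 9.45, 9.04 and 8.49 at 6, 12, 24 and 48 h. With quinacrine they were 9.48, 9.40 and 9.03 at 6, 12 and 24 h, and with the combination 9.45, 9.46, 9.01 and 8.89 at 6, 12, 24 and 48 h. Every 24 and 48 h array thus lay below the untreated array and below every 6 and 12 h array, and the 6 and 12 h arrays lay slightly above the untreated one. The order was the same for few genes: 0.43% of all tested genes were lower on all 24 and 48 h arrays than on all 6 and 12 h arrays, and 2.23% were higher.

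In a limma fit with 1 slope shared by the arms, ODC1 changed by -0.27 log2 units per doubling of time (SE 0.05, 95% interval -0.37 to -0.17, adjusted p = 0.0185, 11 treated arrays). This is a 1.21-fold fall per doubling along the fitted line. In this fit 2.3% of the 5820 tested genes passed, 2.03% rising and 0.275% falling, the median slope of all genes was 0.05, and 0.189% of genes had a lower slope than ODC1. Within arms the slope was -0.34 with erlotinib over 4 times, -0.23 with quinacrine over 3 times and -0.21 with the combination over 4 times. The levels did not fall evenly. From 6 to 12 h the change was -0.05 with erlotinib, -0.08 with quinacrine and 0.01 with the combination. From 6 to 24 h the change was -0.46 with erlotinib, -0.45 with quinacrine and -0.44 with the combination. The level at 48 h was 2.01-fold lower than at 6 h with erlotinib and 1.47-fold lower with the combination. The difference in slope between combination and erlotinib was 0.13 (SE 0.11, interval -0.11 to 0.37, limma adjusted p = 0.621). The 48 h gap between these arms, 0.40, rests on 1 array each. The call was lost without erlotinib 48 h (-0.22, adjusted p = 0.0593), quinacrine 24 h (-0.27, adjusted p = 0.0664) or combination 48 h (-0.29, adjusted p = 0.0675), and with only the 6, 12 and 24 h arrays (-0.23, adjusted p = 0.214). With no untreated time course, time in drug cannot be told apart from time in culture.

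**Figure D1:**
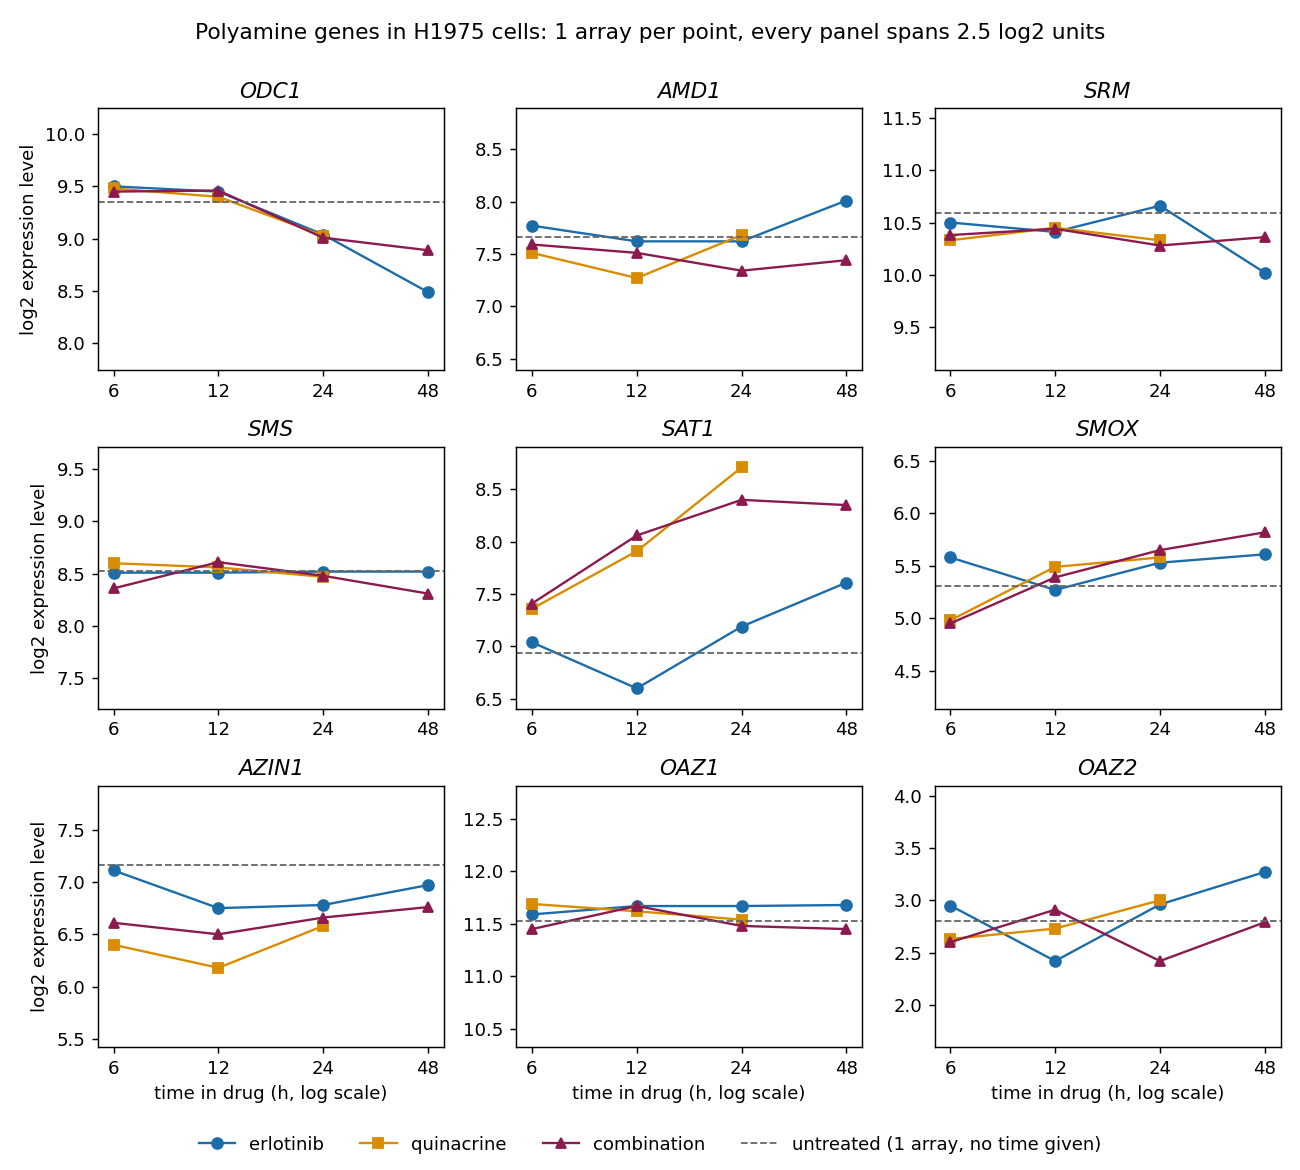
Log2 expression level (vertical axis) of each of the 9 genes against time in drug (horizontal axis, h, log scale), 1 array per point, with erlotinib as circles, quinacrine as squares, the combination as triangles and the untreated array as a dashed line; every panel spans the same range. ODC1 runs down to 8.49 with erlotinib at 48 h and keeps the 3 arms together to 24 h, while SAT1 runs up to 8.71 with quinacrine and its erlotinib points stay at 7.61 or less.

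Quinacrine made no called difference to ODC1. The matched differences between combination and erlotinib were -0.05, 0.01, -0.03 and 0.40 at 6, 12, 24 and 48 h, with a fitted value of 0.08 (SE 0.10, limma adjusted p = 0.709). Between quinacrine and erlotinib they were -0.02, -0.05 and -0.01 at 6, 12 and 24 h, all lower, as held for 20% of tested genes, and 41.7% went one way at all 3 times. With quinacrine in the medium, alone or combined, against erlotinib alone, ODC1 differed by 0.05 (95% interval -0.16 to 0.27).

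Of the other synthesis genes, none passed in any comparison. AMD1, S-adenosylmethionine decarboxylase, was at 7.66 untreated, at 7.77, 7.62, 7.62 and 8.01 with erlotinib, at 7.51, 7.27 and 7.68 with quinacrine and at 7.59, 7.51, 7.34 and 7.44 with the combination. All 4 combination arrays lay below all 4 erlotinib arrays, as held for 7.94% of tested genes, whereas the quinacrine 24 h array overlapped the erlotinib range. The fitted difference between combination and erlotinib was -0.28 (SE 0.12, limma adjusted p = 0.239, over 4 times in each arm), and it was below 0 at all 4 times, as for 14.3% of tested genes. It was widest at 48 h (-0.57). At 6 h it was -0.18, where the median difference of all tested genes between the same arrays was -0.27. The part of this in the AMD1 values was not tested.

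SRM, spermidine synthase, was at 10.59 untreated and between 10.28 and 10.45 on all 7 arrays with quinacrine. With erlotinib it was at 10.50, 10.41, 10.66 and 10.02, so the 48 h array lay below every other array and the 24 h array above. The difference with against without quinacrine was -0.06 (interval -0.32 to 0.19), and the slope with time was -0.06 (SE 0.05, limma adjusted p = 0.491). SMS, spermine synthase, kept the narrowest range of the synthesis genes, from 8.31 to 8.61 over the 12 arrays. Its 4 erlotinib arrays were at 8.51 to 8.52, and the lowest array was combination 48 h. Its difference with against without quinacrine was -0.03 (interval -0.23 to 0.16).

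SAT1, which starts polyamine breakdown, was about 2-fold higher in cells given quinacrine than in cells given erlotinib alone. In the untreated array its level was 6.94. With erlotinib it was at 7.04, 6.60, 7.19 and 7.61 at 6, 12, 24 and 48 h. With quinacrine it was at 7.36, 7.91 and 8.71 at 6, 12 and 24 h, and with the combination at 7.41, 8.06, 8.40 and 8.35 at 6, 12, 24 and 48 h. Each array with quinacrine lay above the erlotinib array of its time and above the untreated array, but the erlotinib 48 h array lay above both 6 h arrays with quinacrine, so the groups overlapped when times were pooled.

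The matched differences between combination and erlotinib were 0.37, 1.46, 1.21 and 0.74 in the order 6, 12, 24 and 48 h. The fitted difference was 0.95 (1.93-fold, SE 0.20, limma adjusted p = 0.0404, over 4 times in each arm). In this comparison 3.64% of tested genes passed, 1.43% as higher and 2.22% as lower. Higher at all 4 times were 9.21% of tested genes. Between quinacrine and erlotinib the differences were 0.32, 1.31 and 1.52 at 6, 12 and 24 h, with a fitted value of 1.02 (2.02-fold, SE 0.22, limma adjusted p = 0.0658) that missed the threshold. There 1.13% of tested genes passed, 0.515% as higher, and 21.7% were higher at all 3 times. Both comparisons use the same erlotinib arrays.

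Taking all 7 arrays with quinacrine against the 4 erlotinib arrays in the same fit, SAT1 was higher by 0.98 (1.97-fold, SE 0.18, interval 0.57 to 1.39, limma adjusted p = 0.0208). The quinacrine arrays among the 7 had no erlotinib, so this comparison is not of quinacrine alone. In it 6.65% of tested genes passed, 2.87% as higher and 3.78% as lower, and 0.601% had a larger difference than SAT1. The call was lost without erlotinib 12 h (0.83, adjusted p = 0.0786), erlotinib 24 h (0.84, adjusted p = 0.106), quinacrine 12 h (0.97, adjusted p = 0.0695), quinacrine 24 h (0.89, adjusted p = 0.0656) or combination 24 h (0.98, adjusted p = 0.0528). The call of combination against erlotinib was kept only without erlotinib 6 h (1.16, adjusted p = 0.00856) or combination 6 h (1.02, adjusted p = 0.0377); without each of the other 9 treated arrays the value was 0.81 to 1.01 and adjusted p 0.0579 to 0.151. In bulk RNA, more RNA per cell and a larger share of cells that express the gene cannot be told apart.

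Erlotinib added to quinacrine made no called difference to SAT1. The combination minus quinacrine was 0.05, 0.15 and -0.31 at 6, 12 and 24 h, fitted as -0.07 (SE 0.22, interval -0.57 to 0.43). No tested gene passed in this comparison (0%), and 47 (0.808%) had an unadjusted p under 0.05 in limma, none of them a member. SAT1 lay above the untreated array by 0.42, 0.97 and 1.77 with quinacrine at 6, 12 and 24 h and by 0.47, 1.12, 1.46 and 1.41 with the combination at 6, 12, 24 and 48 h. With erlotinib these differences were 0.10, -0.34, 0.25 and 0.67. The arm means lay 1.05 (SE 0.51) and 1.11 (SE 0.49) above the lone untreated array with quinacrine and the combination, with limma adjusted p of 0.503 and 0.437. There 0.0344% and 0.0515% of tested genes passed, and 0.0172% passed as higher with the combination.

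The slope of SAT1 with time was 0.34 per doubling (SE 0.08, interval 0.17 to 0.51, limma adjusted p = 0.0503), which missed the threshold. By arm it was 0.23 with erlotinib over 4 times, 0.67 with quinacrine over 3 times and 0.32 with the combination over 4 times. The difference in slope between combination and erlotinib was 0.09 (SE 0.16, interval -0.27 to 0.45). SAT1 and ODC1 thus had slopes of opposite sign in every arm.

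SMOX, spermine oxidase, had a mean of 5.43, near the filter. It was at 5.31 untreated, at 5.58, 5.27, 5.53 and 5.61 with erlotinib, at 4.98, 5.49 and 5.58 with quinacrine and at 4.95, 5.39, 5.65 and 5.82 with the combination. At 6 h quinacrine and the combination differed from erlotinib by -0.60 and -0.63, and the later arrays lay near those of erlotinib. The median difference of all tested genes from erlotinib 6 h was -0.27 on the combination 6 h array and -0.09 on the quinacrine 6 h array; the part of this in the SMOX values was not tested. The slope with time was 0.18 per doubling (SE 0.06, limma adjusted p = 0.101). It was 0.25 steeper with the combination than with erlotinib (SE 0.10, interval 0.02 to 0.49, adjusted p = 0.346), a comparison in which no tested gene passed (0%) and 770 (13.2%) had an unadjusted p under 0.05 in limma. With against without quinacrine SMOX differed by -0.06 (interval -0.37 to 0.26), beside 0.98 for SAT1, the other tested gene of breakdown.

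Among the regulators, AZIN1, the antizyme inhibitor, was lowest in cells given quinacrine alone, and no comparison of it passed. It was at 7.16 untreated, the highest array, at 7.11, 6.75, 6.78 and 6.97 with erlotinib, at 6.40, 6.18 and 6.58 with quinacrine and at 6.61, 6.50, 6.66 and 6.76 with the combination. All 3 quinacrine arrays lay below all 4 erlotinib arrays, which held for 10.1% of tested genes, whereas the combination 48 h array overlapped the erlotinib 12 h array. With against without quinacrine AZIN1 differed by -0.38 (SE 0.10, interval -0.60 to -0.15, limma adjusted p = 0.0551), quinacrine against erlotinib by -0.48 (SE 0.12, adjusted p = 0.0888) and combination against erlotinib by -0.27 (SE 0.11, adjusted p = 0.207). After median centring of the arrays the first 2 passed (-0.36, adjusted p = 0.0309, and -0.49, adjusted p = 0.0399), and after cyclic loess too (adjusted p = 0.0254 and 0.0348). The first also passed without combination 6 h (-0.36, adjusted p = 0.0472), and the second with array weights (-0.42, adjusted p = 0.0321). The combination lay above quinacrine at each of the 3 shared times, by 0.21, 0.32 and 0.08, as did 6.99% of tested genes, while 19.5% differed in one direction at all 3 times; the fitted value was 0.21 (SE 0.12, limma adjusted p = 1). In a test of whether the effects of both compounds add up, the combination lay above the sum of the single effects by 0.50 (SE 0.23, limma adjusted p = 1). No tested gene passed that test (0%), and 116 (1.99%) had an unadjusted p under 0.05 in limma.

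OAZ1, the antizyme found in most tissues, had the narrowest range of all 9 genes. It was at 11.53 untreated, at 11.59, 11.67, 11.67 and 11.68 with erlotinib, at 11.69, 11.62 and 11.54 with quinacrine and at 11.45, 11.67, 11.48 and 11.45 with the combination. Its fitted differences were -0.14 (interval -0.35 to 0.07) for combination against erlotinib and -0.09 (interval -0.28 to 0.10) with against without quinacrine, and its slope with time was -0.01 (interval -0.09 to 0.07). OAZ2, a second antizyme, had levels between 2.42 and 3.27 on the 12 arrays and was at 2.80 untreated. It was below the filter and untested, and its arms overlapped.

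**Figure D2:**
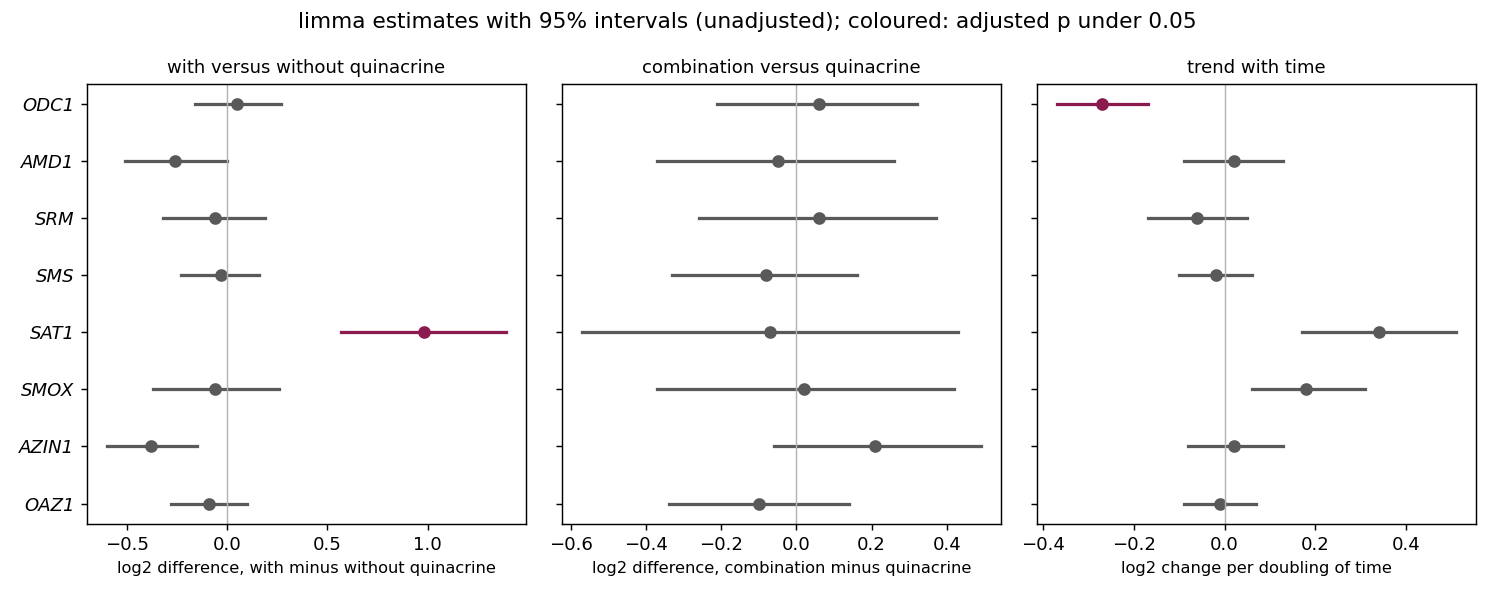
limma estimates (points) with 95% intervals (lines) for the 8 tested genes, as log2 differences with against without quinacrine, log2 differences between combination and quinacrine, and log2 change per doubling of time; coloured estimates passed an adjusted p of 0.05. SAT1 at 0.98 in the first panel and ODC1 at -0.27 in the third are the estimates that passed.

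Taken gene by gene, 1 of 8 tested members was higher and none lower between combination and erlotinib, with a median of -0.06 against -0.03 over all tested genes. Of all tested genes 3.64% passed there, 1.43% as higher and 2.22% as lower. At an unadjusted p under 0.05 there were 3 members, SAT1, AMD1 and AZIN1, and 20.8% of all tested genes. Between quinacrine and erlotinib 0 of 8 passed, where 1.13% of all tested genes did. The smallest adjusted p of a member in limma was 0.0658. There 2 members, SAT1 and AZIN1, had an unadjusted p under 0.05, as had 17.6% of all tested genes. With against without quinacrine 1 of 8 was higher, SAT1, where 6.65% of all tested genes passed and 2.87% were higher, and the median was -0.06 against -0.01. In the trend with time 1 of 8 fell, ODC1, and none rose, where 0.275% of all tested genes fell and 2.03% rose, and the median slope was 0 against 0.05. None passed against the untreated array: with erlotinib none had an unadjusted p under 0.05 in limma, with quinacrine AZIN1 had (-0.77, SE 0.19; 10.3% of tested genes had), and with the combination SAT1 and AZIN1 had (AZIN1 -0.53, SE 0.19; 11.2% of tested genes had). For erlotinib no tested gene passed either (0%), with 144 (2.47%) at an unadjusted p under 0.05. Of all tested genes 0.0344% passed with quinacrine and 0.0515% with the combination against the untreated array.

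**Figure D3:**
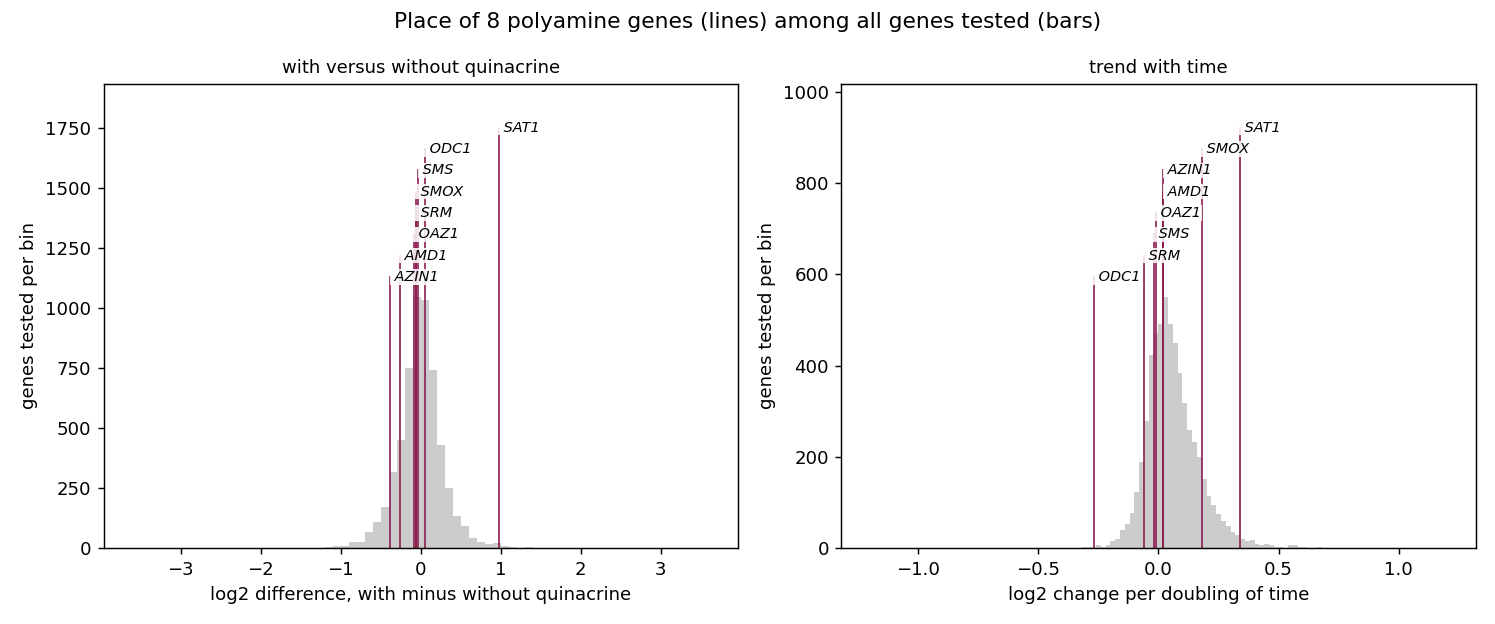
Number of tested genes per bin (grey bars, vertical axis) by log2 difference with minus without quinacrine (left) and by log2 change per doubling of time (right), with the 8 tested polyamine genes as vertical lines whose heights only separate the labels. SAT1 at 0.98 lies in the upper tail on the left and ODC1 at -0.27 in the lower tail on the right. SRM, SMS and OAZ1 lie near 0 in both, but on the right only 9.66% of tested genes lie below SRM.

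Of 44 other genes tied to polyamines, 23 were tested, 17 lay below the filter and 4 had no row of their own under the symbol used. None passed between arms, with or without quinacrine, or against the untreated array. The share of all tested genes that passed there was lowest, 0%, for combination against quinacrine and erlotinib against untreated. It was highest, 6.65%, with against without quinacrine. In the trend with time 1 rose and 1 fell, where 2.3% of all tested genes passed, 2.03% rising and 0.275% falling. ASS1, argininosuccinate synthase of arginine supply, rose by 0.33 per doubling (SE 0.05, limma adjusted p = 0.0169). It stood at 6.91 untreated, at 6.96, 6.97, 7.05 and 7.61 with erlotinib, at 7.09, 7.39 and 7.80 with quinacrine and at 6.90, 7.38, 7.92 and 8.23 with the combination. Its levels ran up in each arm and its matched differences between combination and erlotinib were -0.06, 0.41, 0.87 and 0.62 (fitted 0.46, SE 0.14, adjusted p = 0.123). The ASS1 slope lost its call without quinacrine 24 h (0.33, adjusted p = 0.0621), combination 6 h (0.29, adjusted p = 0.0625) or combination 48 h (0.31, adjusted p = 0.0745). CAV1, caveolin-1, fell by 0.19 per doubling (SE 0.04, limma adjusted p = 0.0457), from 9.05 untreated to 8.33 with erlotinib and 8.29 with the combination at 48 h. Its call was kept only without erlotinib 6 h (-0.20) or erlotinib 24 h (-0.20) when 1 of the 11 treated arrays was left out; otherwise adjusted p was 0.0555 to 0.137.

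Of 5 tested genes of arginine and ornithine supply, SLC7A1, a cationic amino acid transporter, differed by -0.40 with against without quinacrine (SE 0.10, limma adjusted p = 0.0558). ASL differed by -0.33 between combination and quinacrine (SE 0.19, limma adjusted p = 1). Its matched differences were -0.92, -0.04 and -0.03 at 6, 12 and 24 h, so the fitted value rests on the 6 h arrays. Of 7 tested genes of the methionine cycle and salvage, MAT2A, which makes the precursor of the aminopropyl donor, had its highest level, 8.94, in the untreated array. The erlotinib, quinacrine and combination arms differed from it by -0.52 (SE 0.27), -0.81 (SE 0.28) and -0.67 (SE 0.27), with limma adjusted p of 0.999, 0.353 and 0.409. MTR, methionine synthase, differed by -0.52 (SE 0.21, adjusted p = 0.41) between combination and untreated. ATP13A3, a polyamine transporter, differed by -0.25 (SE 0.15, adjusted p = 0.999) between erlotinib and untreated. The product of EIF5A2 carries the spermidine-derived residue hypusine. The EIF5A2 slope with time was higher by 0.62 with the combination than with erlotinib (SE 0.11, limma adjusted p = 0.119). Levels of EIF5A2 fell with erlotinib (6.02, 5.75, 5.64 and 5.43 at 6, 12, 24 and 48 h). They rose with the combination (4.88, 5.51, 5.52 and 6.30). The matched differences were -1.14, -0.24, -0.12 and 0.87. Between the 6 h arrays of these arms the median difference of all tested genes was -0.27, and its part in the EIF5A2 values was not tested.

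Of the 5 tested transcription factors known to act on genes of this pathway, none passed. MYC, a known activator of ODC1, was at 8.31 untreated, between 7.73 (48 h) and 8.20 (6 h) with erlotinib, at 7.97, 7.71 and 7.89 with quinacrine and at 7.89, 7.86, 7.97 and 8.29 with the combination. Its slope with time was -0.01 (SE 0.05, limma adjusted p = 0.957), against -0.27 for ODC1. With erlotinib both genes had their lowest level at 48 h. With the combination at 48 h MYC was at its highest level of that arm (8.29) and ODC1 at its lowest (8.89). A link between MYC and ODC1 was not tested. For MYC the combination lay 0.45 above the sum of the single effects (SE 0.25, limma adjusted p = 1), and for MAT2A 0.66 (SE 0.33, adjusted p = 1). ATF4, a factor of the amino acid response, differed by -0.43 with against without quinacrine (SE 0.12, limma adjusted p = 0.0688) and had a slope of 0.20 (SE 0.05, adjusted p = 0.0551).

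Over the 12 arrays, the tested genes whose levels were most like those of ODC1 were ITGA6 (Pearson r 0.94), GPAT3 (0.93) and the noncoding RNA LINC02984 (0.93). Those least like it were GPNMB (-0.92), ARRB1 (-0.91) and KMT2D (-0.90). For SAT1 the most alike were YBX2 (0.98), SPATS2L (0.97) and IRF2 (0.96), and the least alike BOP1, DUS1L and STUB1 (-0.95 each). These values describe arrays that share treatments, times and 1 normalization, and they were picked as extremes among all tested genes.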

How the data were processed

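Per the series design text and the submitters' processing notes, the values that the authors deposited are log2 levels made by RMA in Expression Console 1.30, and they were used as given. RMA equalizes probe intensities between arrays, which can hide a shift of all genes; the summarized arrays still differed in spread (interquartile range 2.04 to 2.88). Rows were named from the platform annotation: 23871 had 1 symbol, 1842 several and 27904 none; 22569 were matched to RefSeq by Entrez ID. Per gene the row of the highest mean was used, and the 5820 genes with a mean of at least 5 were tested.

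Models were fitted with limma 3.58.1 (R 4.3.3); p-values were adjusted by Benjamini-Hochberg over the 5820 genes, with 0.05 as threshold. Arms were compared in 1 fit of 11 arrays with treatment and time as factors (5 residual degrees of freedom, which measure departure from additive effects, not replicate error). Arms were set against the untreated array, and additivity was tested, by arm means without a time term (8 degrees of freedom), the lone untreated array being assumed to vary like the others. The trend used log2 time (7), and its difference between arms the 8 erlotinib and combination arrays (4). The number of arrays limits the precision. The procedure was tested on simulated data with independent noise and no time effects. Those data differ from these arrays, so that test does not check the p-values given here.

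The members, lists and rules were chosen with earlier results of these data known. Always named were the 9 members; of the other genes, those past the threshold and the 2 with the smallest p in each comparison; and the 3 genes most and least like ODC1 and each member that passed. Alternatives were other filters, normalizations, priors and time terms, array weights, and each array left out.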

Additional observations from a re-analysis of the deposited data

Results flagged for a closer look

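For OAZ1 the erlotinib 6 h array, at 11.59, stood apart from the other 3 erlotinib arrays (11.67 to 11.68), and the combination 12 h array, at 11.67, stood apart from the other 3 combination arrays (11.45 to 11.48). In each case the gap to the nearest array took up most of the range of the 4 arrays (0.889 and 0.864 of it, above the 95% critical value of Dixon's test). Of 18 such groups of 4 arrays over the 9 genes, 2 were marked in this way, and chance marks about 1 in 20. The arrays of an arm differ in time and are not repeats of a condition.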

How the results depend on the processing

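No call of a single member was free of the settings, and no direction was reversed among the results followed here: SAT1, AZIN1, SMOX and ODC1 in the comparisons where at least 1 setting called them, and the slopes of ASS1 and CAV1. Between combination and erlotinib the count of members that passed went from 1 to 0 with a filter at a mean of 4, no filter, only the 6, 12 and 24 h arrays, no time term, the matched arrays of these 2 arms alone, or without combination 6 h and erlotinib 12 h together (an alternative chosen after seeing the data), and it was 0 to 1 with single arrays left out. SAT1 was then 0.87 to 1.01, with adjusted p of 0.0574 to 0.122. Between quinacrine and erlotinib the count went from 0 to 2 with cyclic loess, median centring or array weights, and to 1 with a trended robust prior; single arrays left out gave 0 to 1. With against without quinacrine it went from 1 to 0 with no filter and to 2 with cyclic loess or median centring, and ranged from 0 to 2 with single arrays left out; with no time term AZIN1 passed (-0.39, adjusted p = 0.0471) in place of SAT1 (0.91, adjusted p = 0.0712). Against untreated, array weights, whose estimate did not fully converge in some fits, gave 1 for quinacrine and 2 for the combination in place of 0. In the trend with time the count went from 1 to 0 when genes were not filtered or times past 24 h were dropped, to 2 with cyclic loess, median centring, array weights or a trended robust prior, and to 0 to 3 with single arrays left out. The causes were not tested. Over all settings SAT1 with against without quinacrine was 0.83 to 1.22 and passed in 14 of 21, combination against erlotinib 0.81 to 1.16 and 7 of 22, and the ODC1 slope -0.34 to -0.22 and 16 of 21 (time in hours has another unit and is left out of that range). For the comparisons between arms, keeping only the 6, 12 and 24 h arrays, leaving out erlotinib 48 h and leaving out combination 48 h are the same fit, since a lone 48 h array is taken up by its own time term; SAT1 was then 1.03 with against without quinacrine (adjusted p = 0.0498, a pass counted 3 times) and 1.01 for combination against erlotinib (adjusted p = 0.112, a loss counted 3 times). The share of all tested genes that passed moved from 0.103% to 7.92% between combination and erlotinib, 0% to 11.7% between quinacrine and erlotinib, 0.43% to 13.8% with against without quinacrine and 0% to 14.8% in the trend; against untreated it reached 8.49% for quinacrine and 13.9% for the combination.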
